A study of Mus musculus with 6 samples.

Results

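Palmdelphin, its relatives among the paralemmins and its reported partners in nuclear transport were followed at the level of their transcripts in the mouse aorta. The 7 genes were taken by symbol from the deposited tables (Palmd, Palm, Palm2, Palm3, Akap2, Rangap1 and Xpo1), and each symbol occurred once among 29752 genes. The study compared aortas of C57BL/6 mice aged 15 weeks, with 3 libraries labelled wild type and 3 labelled PALMD+/- (called heterozygote here). All mice had eaten a normal diet for 7 weeks, starting when they were 8 weeks old. The labels name neither the part of Palmd that was altered nor the animal behind each library, and so the tests measure the spread between these libraries, which may be technical. Values are FPKM as deposited, which counts reads relative to the length of a gene and to the size of its library. Whole numbers of reads could be recovered from them with gene lengths from GENCODE release M21 (GRCm38).

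Paralemmins are proteins of the inner face of the plasma membrane with a coiled-coil region, and several of them are anchored through lipids attached at the carboxy terminus. Palmdelphin is the family member that is least tied to membranes, and human variants near PALMD are associated with calcific aortic valve stenosis. RanGAP1 makes the GTPase Ran hydrolyse its GTP on the cytoplasmic side of the nuclear pore, and XPO1 carries proteins with a leucine-rich export signal out of the nucleus while bound to Ran with GTP. Palmdelphin has been reported in complexes with both in endothelial cells. Akap2, which encodes an anchor of protein kinase A, lies directly behind Palm2 and is joined to it by readthrough transcripts annotated as Pakap.

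The ends of the coding sequences show a feature that most of the printed paralemmin transcripts share. The last 11 codons before the stop codon are printed from GENCODE M21 transcripts (GRCm38), with the final 4 codons in capitals, because the lipid-anchored members carry a cysteine codon at the first of these positions.
Palmd-202 (chr3:116923194-116923226, minus strand): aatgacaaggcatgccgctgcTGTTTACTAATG
Palmd-201 (chr3:116918593-116918625, minus strand): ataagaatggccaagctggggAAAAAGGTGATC
Palm-201 (chr10:79819526-79819558, plus strand): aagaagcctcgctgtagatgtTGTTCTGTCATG
Palm2-202 (chr4:57710152-57710184, plus strand): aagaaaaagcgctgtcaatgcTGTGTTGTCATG
Palm3-201 (chr8:84030030-84030062, plus strand): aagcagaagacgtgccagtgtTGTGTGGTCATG
The first capital codon is the cysteine codon TGT in Palm, Palm2, Palm3 and Palmd-202, and the lysine codon AAA in Palmd-201. The 2 Palmd transcripts use different last exons, and their coding sequences have the same length of 551 codons. The deposited values are sums over a gene, so the proportion of each Palmd end was not analysed here.

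The libraries were of similar depth, with 17283951 to 18372131 reads behind the values. All 8 smooth muscle markers reached 1 FPKM in at least 3 libraries, and their summed level lay between 5982 and 12752 FPKM, as a description of the labelled tissue. Heterozygote replicate 2 stood apart. Its mean correlation with the other libraries over 12620 genes was 0.930, against 0.960 to 0.971 for the rest. It had the lowest sum of 8 endothelial markers (253 FPKM, against 747 to 835 FPKM elsewhere), the lowest smooth muscle sum and the highest white adipocyte sum (4954 FPKM). Values without it are therefore added where leaving it out turned the sign of a named value or of a list's median, and for some others. Of 10 striated muscle markers 2 reached the same level, and their sum was 4.96 to 7.57 FPKM.

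Of the 7 members, 4 had 5 FPKM or more in each library and 3 stayed below 1 FPKM. Palm was the most abundant, at 22.0 to 28.1 FPKM over the 6 libraries, followed by Rangap1 (14.2 to 20.9 FPKM), Xpo1 (9.15 to 15.2 FPKM) and Palmd (5.31 to 10.1 FPKM). Palm3 was at 0.0922 to 0.318 FPKM, Palm2 at 0.0454 to 0.368 FPKM and Akap2 at 0 to 0.0213 FPKM. Among the genes with any reads in a library, Palm stood at percentiles 89.7 to 92.3, Rangap1 at 84.0 to 90.0, Xpo1 at 78.1 to 85.2 and Palmd at 67.0 to 79.1. Palm lay above the other 6 members in each library without overlap of the ranges. The ranges of Rangap1 and Xpo1 overlapped, as did those of Xpo1 and Palmd and those of Palm3 and Palm2.

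The order of Palmd and Xpo1 rested on the length by which reads were divided. The exons of all Palmd transcripts together span 7273 bases, of which a retained intron and the last exon of Palmd-201 are part. Its longest protein-coding transcript, Palmd-202, has 3305 bases. For Xpo1 the same lengths are 7181 and 6004 bases, and for Palm 5655 and 2725 bases. In FPKM, Palmd was below Xpo1 in all 6 libraries, with a median ratio of 0.593. Per kilobase of the longest protein-coding transcript, a scale added after the data were seen, Palmd was above Xpo1 in 4 of 6 libraries and the median ratio was 1.09. All reads of a gene enter that scale, also those on exons outside the transcript, so it can overstate Palmd. On that scale, in the units of FPKM, Palmd was at 11.7 to 22.2, Xpo1 at 10.9 to 18.2, Rangap1 at 15.0 to 22.1 and Palm at 45.6 to 58.3. The place of Palm at the top held on both scales, and Palmd reached 22.1% to 42.6% of the Palm value in FPKM and 23.5% to 45.2% of it per transcript length. That ratio was largest in wild type replicate 3 on both scales.

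**Figure D1:**
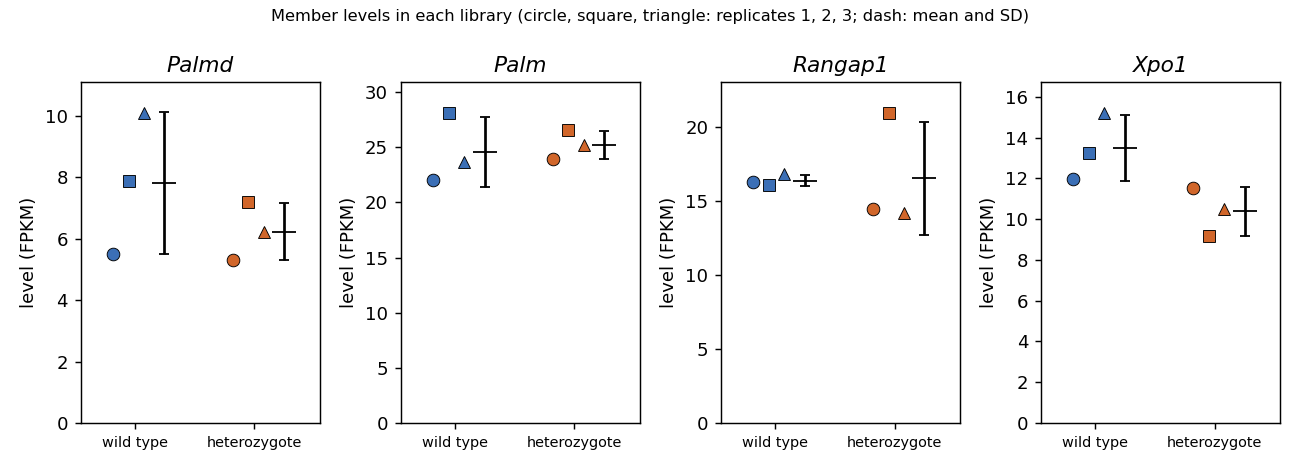
FPKM (vertical axes, from 0) of Palmd, Palm, Rangap1 and Xpo1 in 3 wild-type and 3 heterozygote libraries, with the mean and SD beside each group. Only the Xpo1 groups are apart, with heterozygotes at 9.15 to 11.5 FPKM and wild type at 12.0 to 15.2 FPKM, and heterozygote replicate 2 is the high point of Rangap1.

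Palmd (ENSMUSG00000033377, chr3:116918258-116968987, minus strand) was read first because its gene dose is what the labels say differs. Wild type replicates 1 to 3 had 5.49, 7.88 and 10.1 FPKM of it, and heterozygote replicates 1 to 3 had 5.31, 7.19 and 6.21 FPKM. The groups overlapped: the lowest wild-type library lay beside the lowest heterozygote library. Wild type replicates 2 and 3 lay above every heterozygote library, and the distance between the group means rested mostly on wild type replicate 3. These values rest on 730, 1053 and 1322 reads in wild type and 705, 904 and 825 reads in heterozygotes. Counting error alone would give a coefficient of variation of 2.75% to 3.77%, and the libraries varied by 29.4% within wild type and 15.1% within heterozygotes. The means were 7.82 ± 2.30 and 6.24 ± 0.942 FPKM (SD, n = 3 each). Expressed as heterozygote minus wild type on the log2(FPKM + 1) scale, the fold change was -0.26 with an SE of 0.21 (limma adjusted p = 0.915, 95% limits -0.77 and 0.25). In bulk tissue, fewer cells that express a gene and less of its RNA in each cell cannot be told apart.

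The interval for Palmd was set against a halving of each wild-type value, which on this scale is a change of -0.84. That change lay outside the 95% interval in the comparison of all 6 libraries. It lay inside when wild type replicate 1 (interval -0.89 to -0.04), wild type replicate 2 (-0.89 to 0.41), heterozygote replicate 2 (-0.88 to 0.18) or heterozygote replicate 3 (-0.92 to 0.39) was left out. Over 15 settings, the comparison of all libraries included, it lay inside in these 4 and outside in 11. Most of those 11 refitted the same 6 libraries, so the settings are not independent. With 1 library left out, it lay outside only without wild type replicate 3 or heterozygote replicate 1. The exclusion of a halving thus depended on single libraries. The fold change itself lay between -0.46 (wild type replicate 1 left out) and -0.08 (wild type replicate 3 left out). It was -0.24 with wild type replicate 2 left out. Reads from an altered allele may be counted over the whole gene, and of the 7273 exon bases 333 are shared with 4930455H04Rik on the opposite strand, so the level does not check the genotype labels.

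Palmd was set beside the white adipocyte markers library by library. The sum of these 8 markers, all of which reached 1 FPKM in at least 3 libraries, was 1631, 2552 and 3750 FPKM for wild type replicates 1 to 3, and 1400, 4954 and 1963 FPKM for the heterozygotes in the same numbering. The 3 libraries with the lowest Palmd were also those with the lowest white adipocyte sum, in the same order. This match was not particular to white adipocytes. The brown adipocyte sum was lowest in the same libraries and order: heterozygote replicate 1 (82.0 FPKM), wild type replicate 1 (246 FPKM) and heterozygote replicate 3 (302 FPKM). Heterozygote replicate 2, with the highest white adipocyte sum, had less Palmd than wild type replicates 2 and 3. None of the 8 white adipocyte markers was at 0 in all libraries. With the marker level as a covariate, added after the data were seen, the Palmd log2 fold change was -0.22 (SE 0.15, limma adjusted p = 0.501). The part of these cells in the Palmd level was not tested beyond that.

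Palm, which encodes paralemmin, the founding member of the family (ENSMUSG00000035863, chr10:79793572-79820896, plus strand), did not differ detectably. It had 22.0, 28.1 and 23.7 FPKM as wild-type values and 24.0, 26.5 and 25.2 FPKM as heterozygote values, so all heterozygote values lay within the wild-type range. The means were 24.6 ± 3.15 and 25.2 ± 1.29 FPKM (SD, n = 3 each). The log2 fold change was 0.04 (SE 0.12, limma adjusted p = 0.981), with a 95% interval from -0.25 to 0.34. It thus covers folds of 0.839 to 1.26 on that scale. Palm carried 2273 to 2918 reads in a library, and no exon base is shared with another gene.

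Rangap1, the activator of the Ran GTPase (ENSMUSG00000022391, chr15:81704248-81745530, minus strand), had close values in wild type, at 16.3, 16.0 and 16.8 FPKM. Its heterozygote values were 14.4, 20.9 and 14.2 FPKM. Heterozygote replicate 2 was above every wild-type library, and the other 2 heterozygote libraries were below every wild-type library. The means of 16.4 ± 0.377 and 16.5 ± 3.80 FPKM (SD, n = 3 each) were thus nearly equal with unequal spread, 2.30% against 23.0% of the mean. The log2 fold change was -0.01 (SE 0.16, limma adjusted p = 0.997) with all libraries and -0.18 (SE 0.09, limma adjusted p = 0.393) without heterozygote replicate 2. Its values did not give whole reads with the 4863 bases in GENCODE M21. They did, within 0.01 reads, with 3211 bases and with the multiples 6422 and 9633 bases. The shortest of these was used here, for the level per transcript length too, and with it a library had 832 to 1160 reads.

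Xpo1, the main exporter of proteins from the nucleus (ENSMUSG00000020290, chr11:23256041-23298249, plus strand), was lower in each heterozygote library than in each wild-type library. It had 12.0, 13.3 and 15.2 FPKM as wild-type values and 11.5, 9.15 and 10.5 FPKM as heterozygote values. The highest heterozygote and the lowest wild-type library lay close together, at 1513 and 1574 reads, whose exact Poisson 95% intervals (1438 to 1591 and 1497 to 1654 reads, for counting error only) overlapped. The means were 13.5 ± 1.62 and 10.4 ± 1.20 FPKM (SD, n = 3 each), with heterozygotes at 77.0% of wild type. The heterozygotes stood at a log2 fold change of -0.35 (SE 0.13, 95% limits -0.66 and -0.04), with an unadjusted limma p of 0.0340 and an adjusted p of 0.732, so Xpo1 did not pass the threshold of 0.05. The exact two-sided permutation p was 0.1, the smallest that 3 against 3 libraries allow. Of all 12620 tested genes, 5.12% had all heterozygote values below all wild-type values, 7.80% had all of them above, 12.9% had groups apart in either direction and 6.50% had an unadjusted p under 0.05. Xpo1 was thus 1 gene among 646 with such a separation.

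The Xpo1 difference kept its sign in all 15 settings, between -0.42 and -0.26, and its limma adjusted p ranged from 0.191 to 1.00. Without heterozygote replicate 2, its lowest library, the log2 fold change was -0.27 (limma adjusted p = 0.386). The sum of 8 fibroblast markers, of which 7 reached 1 FPKM in at least 3 libraries, was also apart between the groups, at 1723 to 2123 FPKM in wild type and 2177 to 3483 FPKM in heterozygotes. Its part in the Xpo1 result was not tested. The ratio of Xpo1 to Rangap1 in FPKM was 0.737, 0.828 and 0.906 in wild type and 0.799, 0.438 and 0.739 in heterozygotes. Only heterozygote replicate 2 was far from the rest in this ratio, where Rangap1 was at its highest and Xpo1 at its lowest.

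**Figure D2:**
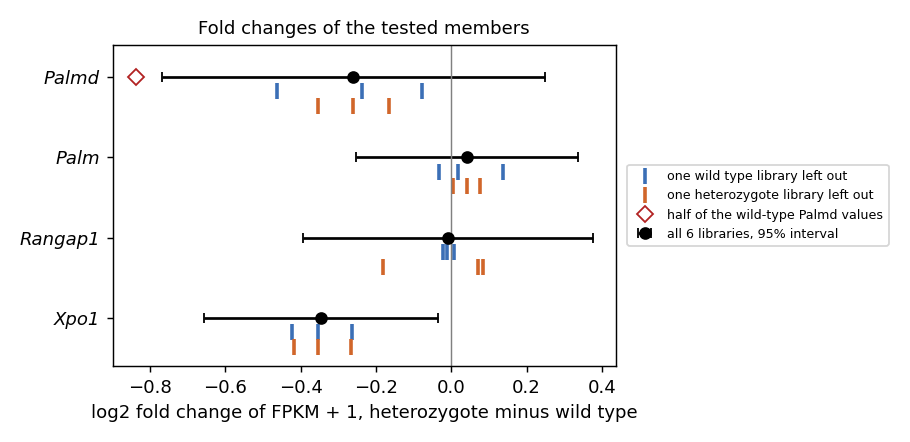
Log2 fold change of FPKM + 1, heterozygote minus wild type (horizontal axis), for the 4 tested members, with all 6 libraries (points, 95% limma intervals) and with each library left out in turn (ticks). The interval of Xpo1 ends at -0.04 before adjustment for 12620 genes, and the diamond marks the -0.84 that a halving of the wild-type Palmd values would give.

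The filter of at least 1 FPKM in at least 3 libraries left Palmd, Palm, Rangap1 and Xpo1 in the test across all genes, and 0 of these 4 passed. Over all tested genes the share that passed was 0.00%. Palm2, Palm3 and Akap2 did not reach the filter and are given by their reads.

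Palm3, the longest of the 4 paralemmins by its coding sequence of 734 codons (ENSMUSG00000047986, chr8:84021471-84030295, plus strand), had 21, 9 and 6 reads in wild type and 12, 9 and 10 reads in heterozygotes. Wild type replicate 1 was the highest library and wild type replicate 3 the lowest, so the heterozygotes lay between them. The summed reads were 36 and 31. The difference of the mean log2(FPKM + 1) was -0.02, with an exact two-sided permutation p of 1.

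Palm2 (ENSMUSG00000090053, chr4:57434247-57712016, plus strand) had 4, 4 and 18 reads in wild type and 7, 23 and 3 reads in heterozygotes. Wild type replicate 3 and heterozygote replicate 2 stood above the others, and their 95% Poisson intervals (10.7 to 28.4 and 14.6 to 34.5 reads, for counting error only) did not reach those of wild type replicates 1 and 2 (1.09 to 10.2 reads each) or heterozygote replicate 3 (0.619 to 8.77 reads). The interval of heterozygote replicate 1 (2.81 to 14.4 reads) overlapped that of wild type replicate 3. The highest white adipocyte sums were also those of wild type replicate 3 and heterozygote replicate 2. The part of these sums in the Palm2 reads was not tested. The groups overlapped, the summed reads were 26 and 33, and the exact two-sided permutation p for the mean log2(FPKM + 1) was 0.7 (difference 0.05, and -0.069 without heterozygote replicate 2).

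Akap2 (ENSMUSG00000038729, chr4:57717657-57896984, plus strand) had 0, 0 and 3 reads in wild type and 0, 3 and 0 reads in heterozygotes. A count of 0 allows up to 3 reads as a one-sided limit, or 0.0200 to 0.0201 FPKM in these libraries (the two-sided interval of the plotted reads ends at 3.69), so both groups were at the limit of detection and no fold is given. The value is uncertain because 6891 of the 8163 exon bases of Akap2, or 84.4%, also belong to Pakap (chr4:57568179-57896982, plus strand), which leaves 1272 bases to Akap2 alone. Palm2 shares 1413 of 3616 exon bases with Pakap, or 39.1%, so its value is uncertain for the same reason. How reads on shared bases were assigned is not given in the sources used here, and Pakap was not analysed here. Of 60 protein-coding genes with at least 80% of their exon bases shared with a gene on the same strand, 43.3% had at most 3 reads in every library. Of 24 such genes shared only with the opposite strand it was 50%, and of 12152 genes with no shared base 15.3%. Low values of Akap2 therefore cannot be told apart from shared bases that were not counted.

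A pair of exon junctions by which Pakap runs from Palm2 exons into Akap2 exons is shown, since it is through Pakap that both genes have shared bases. They were read from Pakap-203 in GENCODE M21 (GRCm38, plus strand, between chr4:57689544 and 57757601, and between chr4:57757683 and 57854562), with the exon behind the junction in capitals.
First junction: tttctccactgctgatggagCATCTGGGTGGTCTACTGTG
Second junction: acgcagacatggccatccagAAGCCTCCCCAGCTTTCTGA
The first junction leaves an exon of Palm2 and enters an exon that Akap2 and Pakap have in common, and the second lands within an Akap2 exon of 2879 bases.

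**Figure D3:**
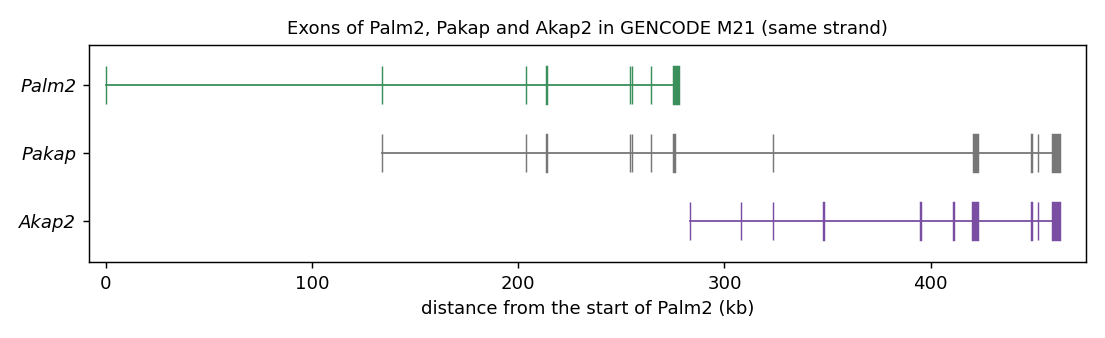
Exons (boxes) of Palm2, Pakap and Akap2 on the plus strand by distance in kilobases from the start of Palm2. Pakap repeats most exons of Palm2 and the large exons of Akap2, 6891 of whose 8163 exon bases it shares.

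**Figure D4:**
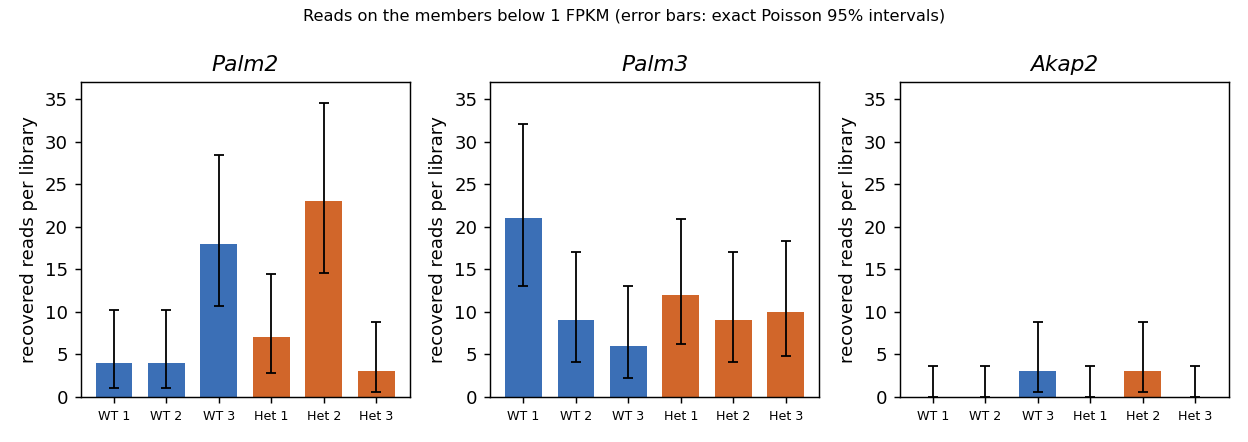
Recovered reads (vertical axes, whole libraries) on Palm2, Palm3 and Akap2 in the 3 wild-type (WT) and 3 heterozygote (Het) libraries, with exact Poisson 95% intervals. Palm2 is highest in wild type replicate 3 and heterozygote replicate 2, with 18 and 23 reads, and Akap2 has 3 reads in each of the same libraries and 0 in the rest.

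Co-variation with Palmd over the 6 libraries was measured for the 3 other members that reached the filter, and none of these 3 relations passed. For Xpo1 Pearson's r on log2(FPKM + 1) was 0.550 (exact two-sided permutation p = 0.263, adjusted p = 0.496) and Spearman's rho 0.486 (exact permutation p = 0.356, adjusted p = 0.533). It was 0.382 for Rangap1 (exact permutation p = 0.463, adjusted p = 0.496), with a rho of 0.486 (exact permutation p = 0.356, adjusted p = 0.533). Palm gave an r of 0.336 (exact permutation p = 0.496, adjusted p = 0.496) and a rho of 0.314 (exact permutation p = 0.564, adjusted p = 0.564). Each genotype alone has 3 libraries, too few for a correlation within it.

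The relations of Xpo1 and Palm with Palmd moved with single libraries, while r for Rangap1 stayed between 0.214 and 0.634 with any one library left out. Without the 2 libraries farthest from the Palmd median, wild type replicate 3 and heterozygote replicate 1, r was 0.066 for Xpo1, 0.344 for Rangap1 and 0.972 for Palm over the other 4. For Xpo1 r was -0.014 without wild type replicate 3 alone, and it was 0.855 without heterozygote replicate 2. Palm followed Palmd in order except in wild type replicate 3, which had the highest Palmd and the second lowest Palm, and in the order of the lowest pair. Without that library its r was 0.917. Palm2, at 18 reads in wild type replicate 3 and 23 in heterozygote replicate 2, was not correlated because of its few reads.

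**Figure D5:**
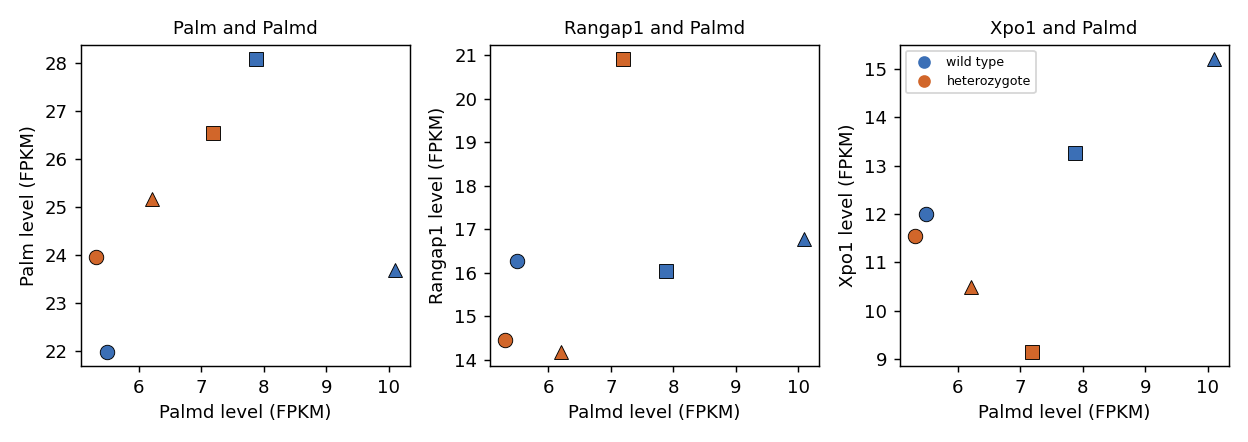
FPKM of Palm, Rangap1 and Xpo1 (vertical axes, not from 0) against FPKM of Palmd in the same library, with replicates 1, 2 and 3 as circle, square and triangle. Wild type replicate 3, at 10.1 FPKM of Palmd, is far to the right in each panel, and r over the 6 libraries is 0.336, 0.382 and 0.550.

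Other genes followed Palmd far more closely than its relatives and partners did. Among 7388 genes with a mean of at least 5 FPKM, 60 (0.812%) had an r above 0.9 with Palmd and 142 (1.92%) one below -0.9. The median r was -0.18, and Xpo1 stood at percentile 84.9, Rangap1 at 77.2 and Palm at 75.4 of these values. The 5 most alike were Ube2a, a ubiquitin-conjugating enzyme (r = 0.989), the aminopeptidase Xpnpep1 (0.981), the class I histocompatibility gene H2-K1 (0.978), Tmem9b (0.976) and the methyltransferase Nnmt (0.972). Ube2a had 8.65, 9.92 and 11.1 FPKM as wild-type values and 8.24, 9.83 and 8.89 FPKM as heterozygote values. The 5 most opposed were Crebl2 (r = -0.996), Cc2d1b (-0.990), Nudcd3 (-0.989), Eef2kmt (-0.987) and Nacc2 (-0.986). Crebl2 had 6.92, 5.94 and 5.27 FPKM as wild-type values and 6.93, 6.19 and 6.67 FPKM as heterozygote values, a narrow range. These genes were picked as the extremes of many over 6 libraries that share their composition, and their r is a description.

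The machinery around RanGAP1 and XPO1 was read from gene lists. Of the Ran cycle genes 11 were tested and 0 passed in either direction, with a median log2 fold change of -0.02 against 0.01 over all 12620 genes. Ranbp2, the pore protein that binds RanGAP1, had the smallest p, with 11.4, 9.37 and 9.63 FPKM as wild-type values and 10.7, 7.10 and 8.38 FPKM as heterozygote values (log2 fold change -0.21, limma adjusted p = 0.912). The cofactor of export Ranbp3 and the Ran importer Nutf2 had log2 fold changes of 0.14 and -0.10, and Nutf2 turned to 0.0042 without heterozygote replicate 2, where Ranbp2 stood at -0.08. No gene of this list had groups apart.

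Of the 7 exportins, 0 passed, 6 had a log2 fold change below 0 and the median was -0.09. Xpo1 and the transfer RNA exporter Xpot had all heterozygote values below all wild-type values, 2 of 7, against 5.12% of all tested genes. Xpo1, already described above as a member, is 1 of these 2, so this share is a description only. Over all 12620 genes 5913 log2 fold changes were below 0. Xpot had 11.8, 11.2 and 11.9 FPKM as wild-type values and 10.9, 10.4 and 9.84 FPKM as heterozygote values (log2 fold change -0.15, limma adjusted p = 0.852). Xpo4 and Cse1l, which returns importin alpha to the cytoplasm, stood at -0.14 and -0.09 on the log2 scale, and their groups overlapped.

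Among 17 importins 0 passed, 12 had a log2 fold change below 0 and the median was -0.02. Ipo9, Ipo7 and Kpna4 had groups apart, each lower in heterozygotes, 3 of 17 against the same 5.12%. Their log2 fold changes were -0.23, -0.20 and -0.17 (limma adjusted p = 0.774, 0.818 and 0.834). Ipo9 had 15.2, 14.7 and 16.7 FPKM as wild-type values and 14.3, 12.4 and 12.8 FPKM as heterozygote values. Kpna1 had a log2 fold change of -0.16 and overlapping groups. Without heterozygote replicate 2 these 4 stood at -0.19, -0.13, -0.12 and -0.14.

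Of 28 nucleoporins tested, 0 passed and 0 had groups apart, with 16 log2 fold changes below 0 and a median of -0.02. Without heterozygote replicate 2 the median turned to 0.03, with 12 below 0, and that of all genes was 0.03. Seh1l, Nup188, Nup205 and Nup160 had the smallest p, with log2 fold changes of -0.18, -0.17, -0.15 and -0.22. For Nup160 the value without heterozygote replicate 2 was -0.05. The nuclear envelope list had 14 tested genes, 0 that passed, 1 with groups apart and a median of -0.11, which was 0.02 without heterozygote replicate 2. Of all tested genes, 5.12% had groups apart with lower heterozygote values and 12.9% in either direction, so 1 of 14 was near that share. Emd, which encodes the inner membrane protein emerin, had 33.3, 35.1 and 28.9 FPKM as wild-type values and 28.9, 20.7 and 26.8 FPKM as heterozygote values, groups that barely missed each other (log2 fold change -0.35, limma adjusted p = 0.774, and -0.21 without heterozygote replicate 2). Lmnb2, Sun2 and Sun1 had log2 fold changes of -0.27, -0.22 and -0.13, and -0.11, -0.10 and -0.08 without heterozygote replicate 2.

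Protein kinase A and its anchors, the field of Akap2, had 18 tested genes, 0 that passed, 1 with groups apart (Ezr) and a median of 0.02. Ezr was lower in heterozygotes, and 1 of 18 was near the 5.12% of all tested genes with such a separation. Ezr, which encodes the membrane and actin linker ezrin, had 12.0, 14.7 and 15.7 FPKM as wild-type values and 10.4, 6.23 and 9.65 FPKM as heterozygote values (log2 fold change -0.65, limma adjusted p = 0.637, and -0.45 without heterozygote replicate 2). The regulatory subunit Prkar2a had a log2 fold change of -0.33. The anchors Akap7 and Akap12 had ones of 0.52 and 0.27. Akap7 was at 10.8 FPKM in heterozygote replicate 2 and at 3.50 to 5.12 FPKM elsewhere, and its value without that library was 0.17. The 6 genes whose products attach a lipid at a carboxy-terminal cysteine or process that end of the protein had a median of -0.05 and 0 that passed. Without heterozygote replicate 2 the median was 0.0012, with 3 below and 3 above 0. Fnta, Fntb, Rce1 and Pggt1b had log2 fold changes of -0.11, 0.10, 0.14 and -0.07, and Rce1 turned to -0.09 without heterozygote replicate 2, where it was at 19.3 FPKM.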

How the data were processed

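Aorta RNA was sequenced as 6 libraries after poly-T selection, per the labels' protocols, with a kit not described there as keeping strand. The deposited FPKM values were calculated by the authors. The build GRCm38 and the tools TopHat2, Bowtie2 2.2.3 and HISAT2 2.1.0 come from the submitters' processing notes, with no roles. For the counting tool and the annotation, nothing is given in the sources used here. Groups and replicate numbers came from the titles, and the heterozygote file headers carry other numbers of the same group. Reads were recovered by multiplying each value by the exon length in GENCODE M21 and dividing by the value of 1 read, and 94.5% to 94.8% of genes under 50 reads came out whole within 0.01 reads. Of 29752 identifiers, 29687 had a length. Limma 3.58.1 (R 4.3.3) with a mean-variance trend was fitted to log2(FPKM + 1) of the 12620 genes that reached 1 FPKM in 3 or more libraries, with no block and no covariate, with Benjamini-Hochberg adjustment and a threshold of 0.05. It was tested on simulated data. Fold changes on this scale understate those of low genes. Single values took an exact two-sided permutation test. Alternatives were another pseudocount, 2 other filters, 2 scalings, a replicate block, voom on recovered reads, a white adipocyte covariate and leaving out each library. The text names the 7 members, up to 4 genes of each list with the smallest p, any with groups apart, and 5 genes at each end of the correlation with Palmd, leaving out predicted genes and pseudogenes; a Ran cycle gene that this rule takes is not reported here. Members and lists were chosen with earlier results of these data known. Python 3.11.15, numpy 2.4.6, pandas 2.3.3, scipy 1.17.1 and matplotlib 3.10.9 were used.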

Additional observations from a re-analysis of the deposited data

How the results depend on the processing

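The number of genes past the threshold was 0 with all libraries and in every setting that kept all 6, and 0 to 1 with one library left out. An unadjusted p under 0.05 was seen for 820 genes, 815 with voom on recovered reads and 2264 with the white adipocyte level as a covariate. With one library left out the log2 fold change ranged from -0.46 to -0.08 for Palmd, -0.032 to 0.14 for Palm, -0.18 to 0.083 for Rangap1, -0.42 to -0.26 for Xpo1, -0.069 to 0.14 for Palm2 and -0.078 to 0.058 for Palm3. Palm turned to -0.032 without wild type replicate 1, Palm3 to 0.058 without the same library, and Palm2 to -0.069 without heterozygote replicate 2. Rangap1 turned to 0.0085, 0.071 and 0.083 without wild type replicate 3 and heterozygote replicates 1 and 3, and to 0.029 with the covariate. The cause was not tested. The correlation with Palmd ranged from 0.053 to 0.917 for Palm, 0.214 to 0.634 for Rangap1 and -0.014 to 0.855 for Xpo1 with one library left out, and that of Palm was -0.050 with TPM scaling. Neither scaling moved the median of all genes by over 0.1. With the replicate block Palmd stood at -0.26 (limma adjusted p = 0.861) and Xpo1 at -0.35 (limma adjusted p = 0.818), and no call changed. Same-numbered libraries deviated together with r of 0.508, -0.088 and -0.342, so the numbers were not taken as pairs. Palm2, Palm3 and Akap2 fell out of the test under every filter but the loosest, and no fold of Akap2 is given because it was at the limit of detection. These 3 members had few reads. For Akap2, and for the 39.1% of Palm2 exon bases shared with Pakap, shared bases that were not counted cannot be told apart from depth. The spread of the other 4 between libraries exceeded counting error except for Rangap1 in wild type (2.30% against 2.94% to 3.47% over all libraries, with its reads taken at a length of 3211 bases).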
